A study of Mus musculus with 8 samples.

Results

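The Zfp genes are the mouse genes that carry a zinc finger protein symbol followed by a number, and those considered here were expressed in the E14.5 gonad. Of 490 probes for 255 such genes on the array, 281 probes for 208 genes were selected because they were well above background on both Input_XX arrays or on both Input_XY arrays. The 2 probes of Zfp42 were left out by definition, and 47 genes had no probe that met the rule. All gene names on the array numbered 27810. The rule used the input signal, so the input levels of these genes are given as a description, and each difference between immunoprecipitate (IP) and input shares that signal. Just inside the rule, the dimmest probe above background on both arrays was that of Zfp296 in XX, at a mean input level of -2.26, and that of Zfp35 in XY, at -2.66. Just outside it, Zfp61 was above background on 1 input array of each sex, at -1.72 and -1.96. Counts of these probes are therefore set beside the same count over all tested probes.

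Most Zfp proteins hold zinc fingers of the C2H2 type, short loops folded around a zinc ion that usually read DNA. Many also carry a KRAB box, which recruits the corepressor Trim28 and silences retroelements and imprinted regions, and others carry a BTB/POZ domain or bind RNA. A few genes with a Zfp symbol encode ubiquitin ligases instead. DAZL is a germ cell RNA-binding protein that binds mRNA and acts on its translation, so the question asked of each gene was whether its mRNA was more abundant in RNA precipitated with an anti-DAZL antibody than in the lysate it came from.

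The samples were whole gonads of E14.5 embryos of strain MCH, taken in lots of 50, with no genetic change or treatment named in the labels. The 4 groups were Input_XX, IP_XX, Input_XY and IP_XY, with 2 arrays each, and the input was 5% of the lysate. The labelled Cy3 cRNA came from 50 ng of RNA for an input and 1 ng for an IP. The labels do not say whether the 2 arrays of a group came from separate lots, so p-values measure the spread between these arrays, which may be technical. None of the 8 arrays was an IP with another antibody, so binding to DAZL and unspecific recovery in the IP cannot be told apart. The gonads held germ cells and somatic cells together, and fewer cells of a type and less RNA per cell cannot be told apart.

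The inputs had 16713 to 20391 probes above background and the IPs 6068 to 9468. Levels are log2 signals minus the log2 of each array's own 75th percentile, which lay at 77.4 to 173 scanner units on the inputs and at 6.83 to 13.1 on the IPs. On the IP arrays that percentile was itself below the lowest signal marked well above background. The lowest such level was between 0.03 and 1.02 on the IPs and between -3.59 and -2.34 on the inputs. As a result, 19840 probes that were above background on none of the 4 XX arrays had a median IP minus input difference of 3.60, and 21297 such probes of the XY arrays had one of 3.30. A difference is therefore a measured change only where both sides were above background, and in the text "measured" means above background on all 4 arrays of the sex. Dazl itself, detected on all 8 arrays, had a difference of 2.69 in XX and 2.06 in XY and was called in both. Of 6 germ cell markers 2 were enriched in each sex, the other being Dppa3 (2.51 and 2.91). Ddx4 (1.91 and 1.78), Pou5f1 (1.87 and 0.06), Dnd1 (0.15 and 0.54) and Mael (-0.59 and -0.92) had no call. Of the 6 germ cell markers checked, 5 were above background on both arrays of Input_XX, 6 of Input_XY, 4 of IP_XX and 5 of IP_XY. Of 4 Sertoli cell markers it was 2, 4, 1 and 2, with differences in XX and XY of 3.17 (enriched) and -1.02 for Cyp26b1 and of -0.23 and 0.01 for Sox9, and Dhh depleted in XY (-3.40). Of 4 markers of XX supporting cells, 3 of Leydig cells, 4 of endothelium and 4 of red blood cells, 0 were above background on both arrays of either IP group, while in Input_XX 2, 1, 2 and 3 were and in Input_XY 1, 3, 2 and 3 were. The part of somatic RNA in the results was not tested.

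In XX gonads 67 of 80 measured Zfp probes lay above their input on this scale. So did most of all 5567 probes measured in XX, whose median difference was 0.77. Of the 281 probes, 41 (34 genes) were enriched, meaning at least 4-fold higher in the IP at an adjusted p under 0.05 in limma, and 11 (9 genes) were depleted by the same limits. That was 14.6% enriched against 14% of the 18265 probes tested, and 3.91% depleted against 9.91%. The 80 measured probes stand for 65 genes. Among them, 27 probes (23 genes) were enriched and 0 were depleted, or 33.8% and 0%, against 26.5% and 7.15% of all 5567 probes measured in XX. Without the fold limit, 49 of the 80 (61.3%, beside 43.1% of the 5567) were higher in the IP at an adjusted p under 0.05 and 4 (5%, beside 17.7%) were lower. The median difference was 1.56 over the 80 and 0.77 over the 5567. Detection in the IP is needed to be measured and favours rises over falls, so these counts describe the measured probes and not all 281. The direction depends on the scaling. With the 50th percentile of each array in place of the 75th, the 281 probes had medians of -1.68 in XX and -1.81 in XY instead of 0.33 and 0.06. All tested probes then had -1.92 and -1.90, and 2 and 4 Zfp probes were enriched, beside 1.03% and 1.2% of all tested probes. The depleted count in XX depended on which IP_XX array was kept, and so did the depleted share of all tested probes.

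In XY gonads 52 of 74 measured probes lay above their input. So did most of all 5481 probes measured in XY, whose median difference was 0.33. There were 24 enriched probes (19 genes) and 5 depleted ones (5 genes), which is 8.54% against 10.2% of all tested probes and 1.78% against 7.68%. Of the measured probes (63 genes), 17 (12 genes) were enriched and 0 were depleted, or 23.0% and 0%, against 19.5% and 5.82% of 5481 probes. Without the fold limit 33 of the 74 (44.6%, beside 32.9% of the 5481) were higher and 5 (6.76%, beside 17.5%) were lower. The median difference over the measured probes was 0.84, beside 0.33 for all. The depleted count in XY likewise depended on which IP_XY array was kept, lower without the first and higher without the second. The depleted share of all tested probes moved the same way. On all 27 and all 17 enriched measured probes, both IP arrays lay above both input arrays, which the call itself nearly requires.

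**Figure D1:**
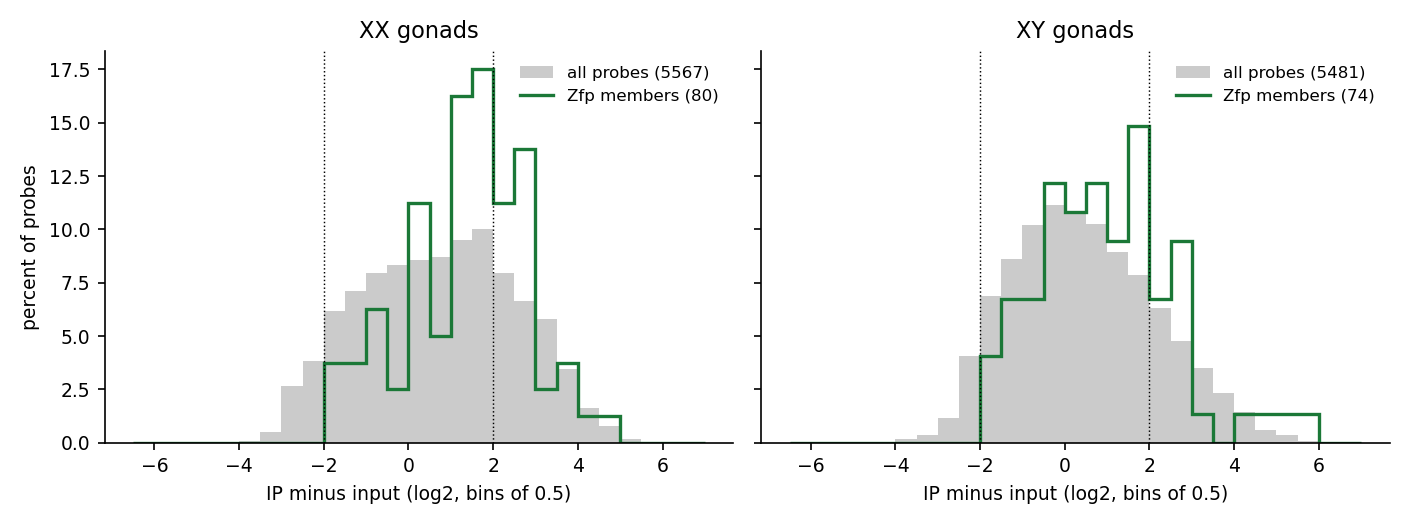
The plots show, for each sex, the percent of probes in bins of the IP minus input difference (log2), among those detected on all 4 arrays of the sex. The Zfp probes (green line, 80 in XX and 74 in XY) hold none beyond the left dotted line at 4-fold lower, while 7.15% and 5.82% of all probes (grey) were called depleted there.

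The Zfp probes were detected in the IP at a share close to that of all tested probes. In XX, 80 of the 281 probes were detected on both IP arrays, 53 on 1 and 148 on none, and 28.5% on both compares with 30.6% of all tested probes. In XY the numbers were 74, 56 and 151, and 26.3% compares with 30.2%. For 124 probes no IP array of either sex was above background. Where the XX input was detected on both arrays, its median level was 2.36 for probes detected on both IP arrays, 1.03 for those on 1 and -0.72 for those on none, and in XY these medians were 2.27, 0.95 and -1.10. The ranges overlapped, since input levels of probes missed by both XX IPs reached 2.98, and the brightness of a probe also depends on its sequence.

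Zfp318, a nuclear zinc finger protein known from immunoglobulin transcripts of B cells and from the testis, had the largest difference in both sexes. Its levels were 2.32 and 2.29 on Input_XX, 7.13 and 6.99 on IP_XX, 2.26 and 2.24 on Input_XY, and 8.16 and 7.75 on IP_XY. The 4 inputs lay close together, and every IP array was far above them. The difference was 4.75 ± 0.38 (SE) in XX, or 26.9-fold, with an adjusted p of 5.95e-05 in limma, and 5.70 ± 0.38 in XY, or 52.0-fold, with an adjusted p of 5.79e-06. The probe lies on chromosome 17 at 45877589 to 45877648 of mm8, and a second probe at 45876497 gave 4.22 and 5.15. The remaining probe, at 45883784, gave 1.78 in XX, which did not reach 4-fold, and 2.78 in XY. Zfp318 was the only one of these genes called in both sexes also after normexp background correction. That correction left 1 member probe enriched in XX and 3 in XY. Of all tested probes it left 0.433% enriched in XX and 0.356% in XY, where 14% and 10.2% were enriched without it.

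Zfp516, a transcription factor known from brown fat, was enriched in both sexes by the probe at 83137723 to 83137782 on chromosome 18. Its levels were 2.35 and 2.62 on Input_XX, 4.87 and 5.68 on IP_XX, 3.00 and 3.12 on Input_XY, and 7.53 and 8.06 on IP_XY. The difference was 2.79 ± 0.43 in XX (adjusted p = 0.000386, limma) and 4.74 ± 0.43 in XY (adjusted p = 3.71e-05, limma). The dimmer second probe was below background on both IP_XX arrays and gave 4.17 in XY, or 1.78 and no call once every level was raised to a common floor.

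The RING ubiquitin ligases Zfp313 and Zfp364 were among the largest rises. Zfp313 (now Rnf114) had levels of 5.52 and 5.45 on Input_XX, 7.93 and 9.04 on IP_XX, 5.45 and 5.45 on Input_XY, and 8.21 and 9.07 on IP_XY. It was 8.0-fold higher in the XX IP and 9.14-fold higher in the XY IP. Zfp364 (now Rnf115) had levels of 2.21 and 2.28 on Input_XX, 5.60 and 6.38 on IP_XX, 1.47 and 1.58 on Input_XY, and 4.02 and 4.66 on IP_XY, a rise of 13.4-fold in XX and 7.06-fold in XY. Adjusted p-values of these 4 differences ranged from 0.0001 to 0.000532 in limma. IP and input arrays did not overlap for either gene, which a call nearly requires. At the 50th percentile Zfp313 gave 0.99 in XX and 1.33 in XY, and Zfp364 gave 1.74 and 0.96. With normexp Zfp313 gave 0.87 and 1.34, and Zfp364 gave 1.51 and 0.73. None of these was 4-fold.

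Zfp238 (now Zbtb18), a BTB/POZ repressor needed for neurons of the cerebral cortex, had levels of 2.40 and 2.62 on Input_XX and 5.93 and 6.39 on IP_XX, and of 1.39 and 1.68 on Input_XY and 4.13 and 4.43 on IP_XY. It rose 12.5-fold in XX and 6.72-fold in XY. Zfp410, an activator of the chromatin remodeller gene Chd4, was 7.90-fold higher in XX and 4.14-fold higher in XY, where its difference of 2.05 ± 0.43 was the smallest among the measured probes called. In XX Zfp410 gave 0.98 at the 50th percentile and 0.90 with normexp, neither of them 4-fold. Zfp26 (2.75 in XX and 2.53 in XY) and Zfp251 (2.58 and 2.68) had nearly the same difference in both sexes.

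Zfp451, a SUMO ligase, was called in XX on weak signals. The probe at 33743796 on chromosome 1 had levels of -1.43 and -1.56 on Input_XX and 2.22 and 2.57 on IP_XX, a difference of 3.89 ± 0.43 (adjusted p = 9.57e-05, limma), and the probe at 33742897 gave 3.47 ± 0.39. With every level raised to a common floor the first difference was 1.37 and no longer 4-fold. The probe at 33706624 gave -0.41 in XX and -0.46 in XY, with no call. It was above background on 1 of the 2 IP_XX arrays, so no sex had measured probes of opposite sign.

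The remaining rises among the 10 largest in XX were those of Zfp706, Zfp367 and Zfp212. Zfp706, whose product opposes self-renewal of embryonic stem cells, gave 2.99 ± 0.60 from levels of 1.61 and 1.41 on Input_XX and 4.00 and 5.00 on IP_XX, but its other probe gave 0.93 without a call. Zfp212 gave 2.77 in XX and 1.59, below the 4-fold limit, in XY. In XY the remaining rises were those of Zfp106 (2.68, and 2.58 by its second probe), Zfp329 (2.35 and 2.32) and Zfp710 (2.21). The call of Zfp710 was lost without the second IP_XY array (1.71), with scaling to the probes detected on all arrays in place of the 75th percentile (1.89) and with the common floor (adjusted p = 0.0544, limma). It was also lost at the 50th percentile (0.35) and with normexp (0.60). Zfp106 is an RNA-binding protein needed by motor neurons, and its first probe gave 1.27 in XX with no call and the second 2.09 with a call. That call was lost without the second IP_XX array (1.88), with scaling to detected probes (1.67) and with the common floor (1.81). It was also lost at the 50th percentile (0.09) and with normexp (0.48).

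**Figure D2:**
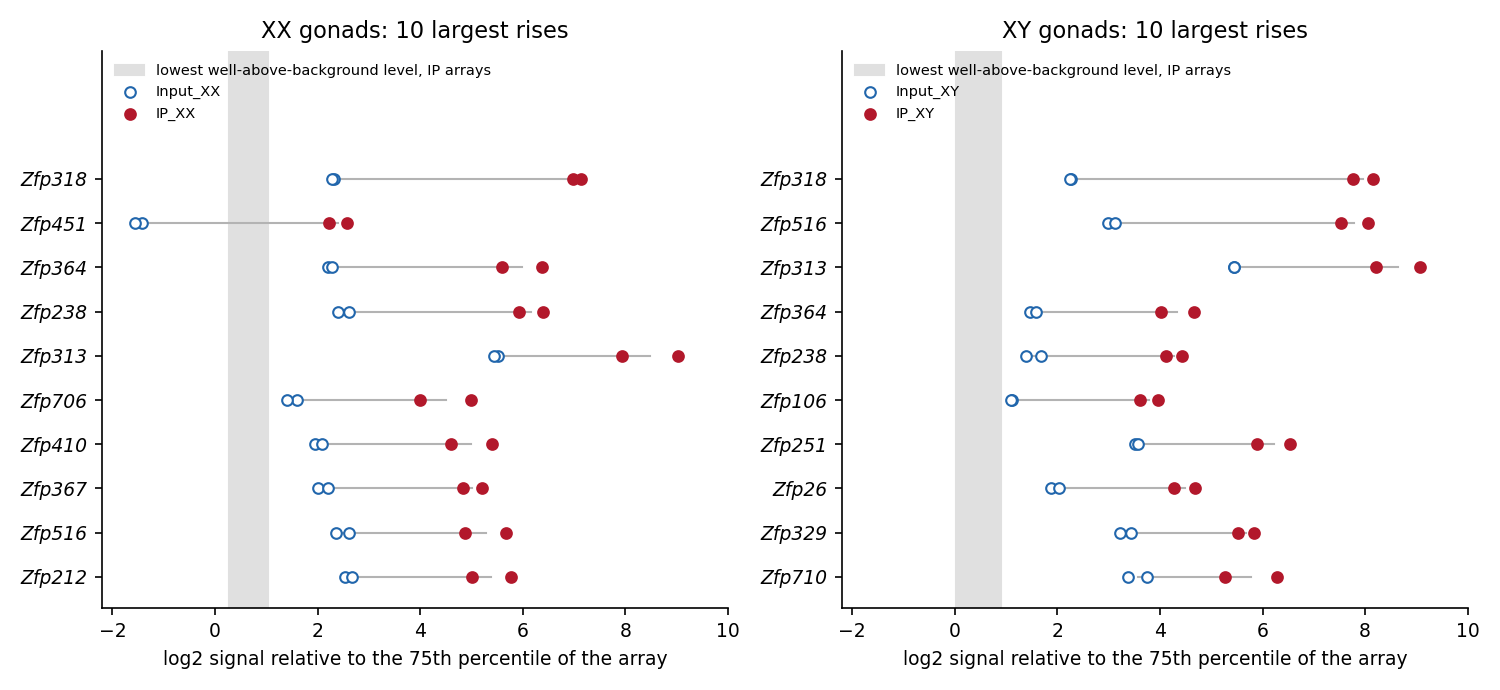
The plots show the level on each array (log2, 75th percentile of the array at 0) for the 10 genes with the largest measured rise in each sex, with 2 Input arrays (open blue) and 2 IP arrays (red) per gene, a grey line between their means and a grey band for the lowest level well above background on the IP arrays. IP_XX lay above Input_XX and IP_XY above Input_XY for every gene, which their choice as called rises nearly requires. Zfp318 had the longest line in both sexes at 4.75 and 5.70.

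The genes were also grouped by known role. The lists were chosen with earlier results of these data known, and some genes have several probes. Counts and medians of a list, and their order, are therefore descriptions. Beside the counts of each list stand the shares over all tested probes, 14% enriched and 9.91% depleted in XX and 10.2% and 7.68% in XY. Of 13 genes placed in a list of imprint and retroelement silencing, 5 met the detection rule (Zfp445, Zfp110, Zfp455, Zfp68 and Zfp30) with 6 probes. Whether each of these 5 has that role was not checked. In XX 0 of the 6 were enriched and 1 (16.7%) was depleted, and in XY 0 and 0 were, counts that so few probes cannot set apart from the shares over all tested probes. Zfp445, which maintains imprints together with Zfp57, had input levels of only -1.29 in XX and -2.03 in XY and was on no IP array. Zfp68 was the exception in signal, with 3.00 and 2.96 on Input_XX and 0.58 and 0.43 on IP_XX, where neither IP array was above background, so it fell by at least 4.76-fold (adjusted p = 0.000385, limma). In XY it was measured and gave -1.70, short of the 4-fold limit.

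Among BTB/POZ genes under older Zfp names 4 of 9 met the rule, and Zfp238 was the 1 of 4 probes enriched, in both sexes. Zfp161 (now Zbtb14) gave 1.67 in XX and 1.46 in XY, and Zfp131 gave 1.37 and 0.61, none of them 4-fold. Zfp509 (now Zbtb49) was on no IP_XX array.

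Of genes linked to RNA and translation, 9 of 10 met the rule, with 13 probes. In XX 5 probes of 4 genes (38.5% of the probes, beside 14%) were enriched and 1 (7.69%, beside 9.91%) was depleted. In XY 3 probes of 2 genes (23.1%, beside 10.2%) were enriched and 2 (15.4%, beside 7.68%) were depleted. The enriched measured genes were Zfp106, Zfp706 and Zfp326, which with its partners couples splicing to transcription. The calls of Zfp36, the decay factor of AU-rich mRNAs, in XX and of Zfp473, a factor of histone mRNA 3' end processing, in XY rest on IPs below background on both arrays, so no fold is given. Zfp593, a ribosome biogenesis factor, had levels of 2.37 and 2.32 on Input_XX and -1.11 and -0.62 on IP_XX and fell by at least 3.23-fold, and its other probe gave -0.10. Zfp622, which acts in maturation of the large ribosomal subunit, fell by at least 1.85-fold in XY and gave -1.42 in XX with no call. Zfp598, a ubiquitin ligase of collided ribosomes, gave 0.21 in XX and -1.54 in XY, neither of them called.

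The list of genes linked to ubiquitin, SUMO or the spindle had the highest median of the 5 lists, 1.76 in XX and 1.25 in XY over 16 probes of 6 genes, beside 0.09 and -0.03 over all tested probes. In XX 7 probes of 4 genes (43.8%, beside 14%) were enriched and in XY 3 probes of 3 genes (18.8%, beside 10.2%), with Zfp451 among the latter below background on all 4 arrays. In both sexes 0 were depleted, beside 9.91% and 7.68%. Besides Zfp313, Zfp364 and Zfp451 these were Zfp644, a partner of the histone methyltransferases Ehmt1 and Ehmt2, which gave 2.39 and 2.08 by enriched probes in XX and 1.43 by another. The first of these was 1.96 without the first IP_XX array, 1.97 with scaling to detected probes and 0.71 with the common floor, each below the limits. It was 0.38 at the 50th percentile and 0.78 with normexp, also below them. This role of Zfp644 is not that of the list, and without it 5 of 13 probes (38.5%) were enriched in XX and 3 (23.1%) in XY, with medians of 1.70 and 1.36. Zfp207, a spindle checkpoint protein that binds Bub3, gave 1.70 and 1.82 in XX and 1.36 and 1.51 in XY, every value at an adjusted p under 0.05 but below 4-fold. Zfp91 had 5 probes, of which 1 was measured, and none was called in either sex.

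Of genes of pluripotency and development, 16 of 17 met the rule, with 25 probes, and 6 probes (24%, beside 14% in XX and 10.2% in XY) were enriched and 0 depleted in each sex, from 4 genes in XX (Zfp318, Zfp516, Zfp281 and Zfp770) and 3 in XY (Zfp318, Zfp516 and Zfp462). Zfp318 is better known for the roles given above, and without it 4 of 22 probes (18.2%) were enriched in XX and 3 (13.6%) in XY. Zfp281, a pluripotency factor, had levels of 2.27 and 2.34 on Input_XX, 5.32 and 4.82 on IP_XX, 2.27 and 2.25 on Input_XY and 3.62 and 3.15 on IP_XY. It rose by 2.76 ± 0.40 in XX and gave 1.13 ± 0.40 in XY (adjusted p = 0.0397, limma), below the fold limit. Zfp462 gave 0.33 in XX with no call and 2.12 in XY with one (1.80 and no call with scaling to detected probes), and the sexes did not differ by the test of the difference. Its XY call was also lost at the 50th percentile (0.26) and with normexp (0.19). Other genes of the list were detected in the XX IP without a call. Zfp521, with input levels of 3.29 and 3.68 in XX, gave 0.07, and Zfp503, with 3.65 and 4.14, gave -1.87 ± 0.51 (adjusted p = 0.0103, limma), the lowest measured difference in XX.

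**Figure D3:**
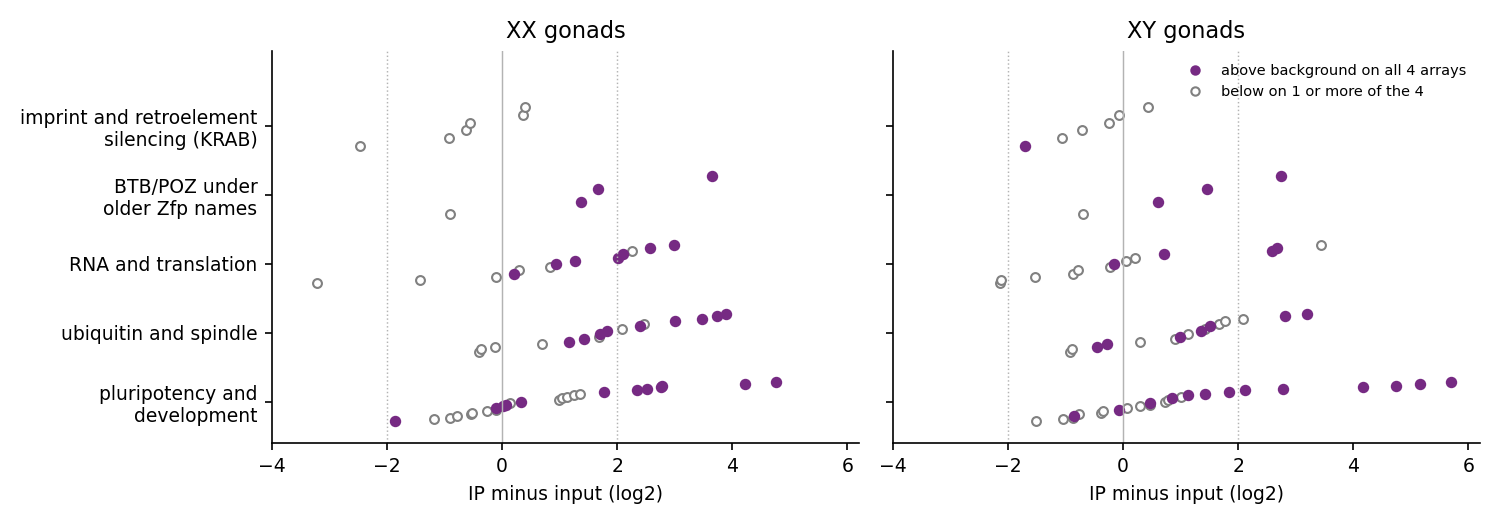
The plots show the IP minus input difference (log2) of every probe of the 5 role lists in XX and XY gonads, filled where the probe was above background on all 4 arrays of the sex and open otherwise, with dotted lines at 4-fold. Above the upper line in XX lie 7 of 16 probes of the ubiquitin and spindle list and 0 of 6 of the silencing list, and the highest points in both sexes are those of Zfp318 at 4.75 and 5.70.

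With the 75th percentile scaling no Zfp probe was depleted where it was measured, so each depleted probe had at least 1 IP array below background. With the 50th percentile this no longer held, since 111 of the 281 probes were depleted in XX and 115 in XY, beside 47.3% and 45.9% of all tested probes. The depleted Zfp probes included at least 7 of 32 differences of role list genes that were measured and not called. The following were named after their values were seen. Zfp771 had levels of 4.63 and 4.58 on Input_XX, 0.28 and 1.70 on IP_XX, 4.26 and 4.45 on Input_XY, and 0.84 and 2.12 on IP_XY and was above background on 1 IP array of each sex. The fit gave -3.61 ± 0.54 in XX and -2.88 ± 0.54 in XY (adjusted p = 0.000344 and 0.00184, limma), sizes that rest in part on an IP array at background and are not measured changes. Zfp286 and Zfp593 were also depleted in both sexes. In XX the others were Zfp90, Zfp68, Zfp469 (now Tnrc18), Zfp511, Zfp764 and Zfp688, with lower bounds from 1.18-fold for Zfp688 to 4.76-fold for Zfp68 where both IP arrays were below background. In XY the others were Zfp259 (now Zpr1), with a bound of 1.61-fold, and Zfp622. Of the 41 probes enriched in XX, 7 were above background on no IP array, and of the 24 in XY 6 were. Over all tested probes it was 752 of 2566 enriched in XX and 504 of 1861 in XY. Zfp750, Zfp35 and Zfp37 in XX and Zfp473, Zfp398, Zfp174, Zfp451 and Zfp169 in XY had a probe called although it was below background on all 4 arrays of the sex.

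Genes represented by several probes gave a check within each array. In XX, 14 genes had 2 or more measured probes. They had the same sign in 13 of them, the exception being Zfp148 at -0.11 and 0.01, and the median range within a gene was 0.45. In XY it was 9 of 9 genes, with a median range of 0.14. Zfp318 had the widest range in both sexes, 2.97 and 2.92. No gene had 1 probe enriched and another depleted. Probes of Zfp genes may also pick up mRNA of close relatives in this family, which these arrays cannot separate.

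Zfp genes lie in clusters, and 66 of the 281 probes (52 genes) were on chromosome 7 in mm8, which is 23.5% beside 7.28% of all tested probes. In XX 9 of the 66 (13.6%) were above background on both IP arrays, beside 33.0% of the 215 others, 5 (7.58%) were enriched, beside 16.7%, and 5 (7.58%) depleted, beside 2.79%. In XY it was 12 of 66 (18.2%) beside 28.8%, with 4 enriched (6.06%) beside 9.30% and 1 depleted (1.52%) beside 1.86%. The median XX input level was 0.03 for chromosome 7 and 0.18 for the others. Over all tested probes, 25.9% on chromosome 7 and 31.0% elsewhere were above background on both XX IPs, 11.9% and 14.2% were enriched and 12.3% and 9.73% depleted in XX, and in XY 27.6% and 30.4% were above background on both IPs, 9.32% and 10.3% were enriched and 8.65% and 7.61% depleted. These are descriptions with no test.

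The sexes were compared by the difference of their IP minus input values. Of the 281 probes, 3 were higher in XX and 2 in XY at an adjusted p under 0.05 in limma, with no fold limit, beside 2.18% and 1.12% of all tested probes. All XX arrays were on 1 slide and all XY arrays on another, so sex and slide cannot be told apart in these values. Zfp367 had levels of 2.01 and 2.21 on Input_XX, 4.84 and 5.20 on IP_XX, 1.74 and 1.93 on Input_XY, and 1.40 and 1.85 on IP_XY. The IP was 7.53-fold above input in XX and overlapped the input in XY, and the difference between the sexes was 3.12 ± 0.56 (adjusted p = 0.014, limma).

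Zfp326 differed by both probes. The brighter had levels of 3.08 and 3.18 on Input_XX, 5.78 and 5.64 on IP_XX, 2.08 and 2.39 on Input_XY, and 1.80 and 2.35 on IP_XY. The differences were 2.58 in XX and -0.16 in XY, apart by 2.73 ± 0.56 (adjusted p = 0.0243, limma), and the dimmer probe gave 2.81 ± 0.55. The dimmer probe was above background on only 1 of the 2 IP_XY arrays. The XX call of the dimmer probe (2.02) was lost without the first IP_XX array (1.72), with scaling to detected probes (1.59) and with quantile normalization (1.86). It was also lost at the 50th percentile (0.01) and with normexp (0.12). The dimmer Zfp516 probe (-3.04) and Zfp473 (-2.62) were higher in XY. Neither had an IP_XX array above background, and Zfp473 was below background on all XY arrays. Of the 5 calls 0 remained without a filter on dim probes, when the test was limited to probes detected on all 8 arrays, after scaling to the 50th percentile, or without the first XX input or either XY input. In an unmoderated limma fit 22 probes were higher in XX and 16 in XY at an unadjusted p under 0.05, and 0 and 0 after adjustment.

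Of the probes enriched in the 2 sexes 13 (12 genes) were shared, which is 31.7% of the 41 in XX and 54.2% of the 24 in XY, beside 41.2% and 56.7% for all tested probes. For the 61 probes detected on all 8 arrays there were 19 enriched in XX and 15 in XY, of which 10 were the same probe (52.6% and 66.7%, beside 63.6% and 78.6% of all probes so detected). Across these 61 probes Pearson's r between the XX and XY differences was 0.76 and Spearman's rho 0.66, and over the 4206 probes of any gene so detected they were 0.89 and 0.89, as a description across probes that share arrays. The XX difference was the larger in 34 of 61 (55.7%, beside 48.6% of the 4206), and the median of XX minus XY was 0.15, beside -0.02.

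**Figure D4:**
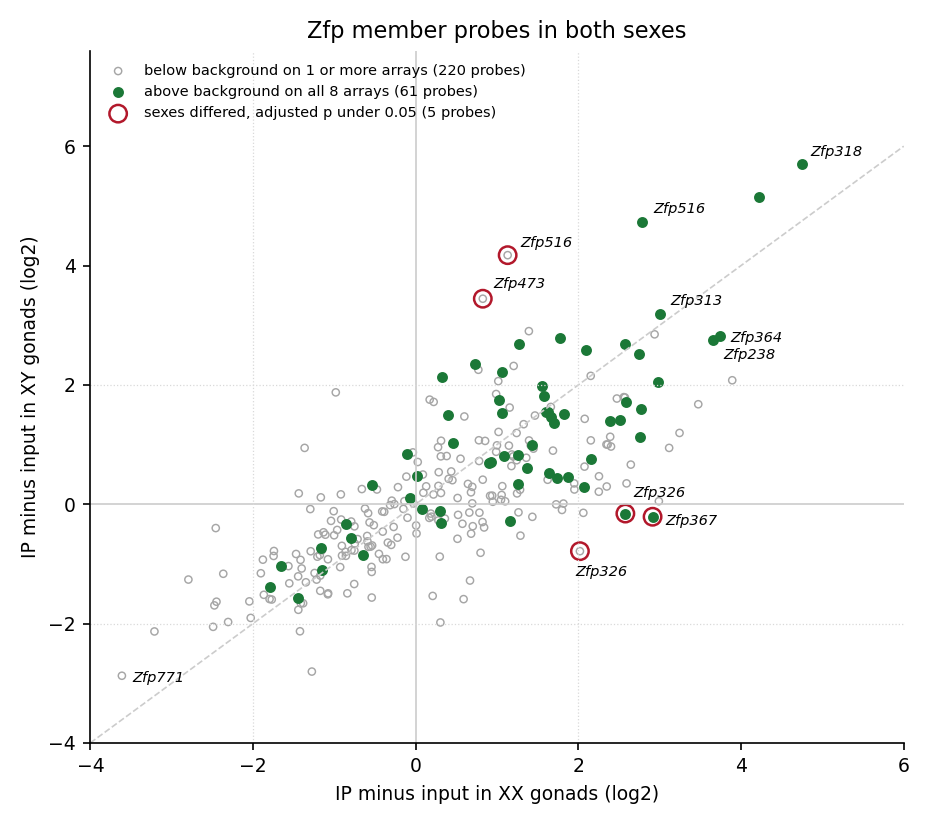
Each point is 1 of the 281 Zfp probes, with the IP minus input difference (log2) in XX on the horizontal axis and in XY on the vertical axis, dotted lines at 4-fold and a dashed line where both are equal. The 61 probes above background on all 8 arrays are filled, and the 5 circled probes of Zfp326, Zfp367, Zfp516 and Zfp473 differed between the sexes.

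All 17 listed partners of KRAB repression were tested, with 27 probes. In XX 2 probes (7.41%, beside 14% of all tested probes) were enriched and 3 (11.1%, beside 9.91%) depleted, and in XY 1 (3.70%, beside 10.2%) was enriched and 0 (beside 7.68%) depleted, with medians of 0.29 and 0.11. Smarcad1, a chromatin remodeller that works with Trim28, rose by 3.27 ± 0.37 in XX (adjusted p = 9.99e-05, limma) and gave 0.95 in XY with no call. Trim28 itself, measured in both sexes, gave -1.12 and -1.13 with no call. The depleted probes belonged to Chd3, by 2 probes, and Atf7ip, another probe of which was enriched in XY (2.31). The Hdac2 probe enriched in XX was below background on both IP arrays.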

How the data were processed

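RNA precipitated with an anti-DAZL antibody and input RNA of E14.5 XX and XY mouse gonads were each measured on 2 1-colour Agilent whole mouse genome arrays. The deposited scanner files give processed signal intensity and, per the file headers, mean and local background intensity and marks for spots well above background, made with Feature Extraction 9.5.3.1. The authors also deposited a table of log2 values, for which, by the study's methods, low values were raised to 1 and arrays scaled to the 75th percentile. It correlated at 0.99996 or more with the values used here.

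Spots marked as outliers were dropped, signals below 1 were raised to 1, the spots of a probe were averaged, and the log2 of each array's 75th percentile was subtracted. Of 41101 probes, 18265 (44.4%) were tested, those well above background on both arrays of any group. limma 3.58.1 in R 4.3.3 was fitted to all 8 arrays with 1 mean per group (4 residual and 7.82 prior degrees of freedom), with two-sided tests and Benjamini-Hochberg adjustment over all 18265 probes. A 4-fold limit applied to IP against input in both directions, and none to the difference between the sexes. The study's own 4-fold selection covered higher IP levels only. Where both arrays of a group were below background, folds are bounds against the higher of the signal and the lowest well-above-background signal. The script was tested on simulated data.

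With 2 arrays a group, their number limits precision. Genes were named by accession (215 probes), symbol (54) or older symbol (12) in the GRCm38.p6 RefSeq gene table. Positions are those of the files (mm8), for which no annotation was used here, so the exon or untranslated region of a probe is left out. The genes named were, for each sex, the 10 largest called rises and the 5 largest called falls among probes above background on all 4 arrays (no fall met this), the 5 largest sex differences each way above background on all 8 arrays, the members of the role lists, and a gene's other probes where they disagreed. The members and lists were chosen with earlier results of these data known. Alternatives in scaling, background, filter, floor, test, replicate block and left-out arrays are given in the closing section. Groups came from the labels.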

Additional observations from a re-analysis of the deposited data

Results flagged for a closer look

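The IP minus input difference differed between the sexes, by the limma test of the difference itself, for 5 probes. Values are XX minus XY on the log2 scale. Zfp367 had 3.12 and Zfp326 had 2.73 by its brighter and 2.81 by its dimmer probe, with both IP_XX arrays above both inputs and IP_XY arrays that overlapped the inputs or, for the dimmer Zfp326 probe, lay below them. That dimmer probe was above background on only 1 of the 2 IP_XY arrays. The dimmer Zfp516 probe had -3.04 and Zfp473 had -2.62, and both rest on arrays below background. The brighter Zfp516 probe, at 2.79 in XX and 4.74 in XY, did not pass this test. Sex and slide cannot be told apart here.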

How the results depend on the processing

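Counts below are of the selected Zfp probes, given as enriched and depleted in XX, enriched and depleted in XY, and higher in XX and in XY for the sex difference. They were 41, 11, 24, 5, 3 and 2, with median differences of 0.33 and 0.06 in the 2 sexes. Percentages in brackets are the shares of all tested probes for the first 4 counts, here 14%, 9.91%, 10.2% and 7.68%. Scaling to the 50th percentile gave 2, 111, 4, 115, 0 and 0 (1.03%, 47.3%, 1.2% and 45.9%), with medians of -1.68 and -1.81 where all tested probes moved to -1.92 and -1.90. Scaling to the probes above background on all arrays gave 24, 20, 16, 9, 7 and 4 (9.15%, 15.6%, 6.88% and 12%), with medians of -0.10 and -0.27 (all tested probes -0.34 and -0.36). Quantile normalization gave 27, 36, 18, 26, 10 and 3 (8.1%, 18%, 6.79% and 13.6%), with medians of -0.38 and -0.68 (all tested probes -0.74 and -0.73). Normexp background correction gave 1, 11, 3, 2, 0 and 0 (0.433%, 11.3%, 0.356% and 5.68%), with medians of 0.15 and 0.07. With outlying local backgrounds replaced it gave 1, 11, 3, 9, 1 and 2 (0.433%, 11.3%, 0.438% and 10.6%), with medians of 0.15 and 0.14. A common floor after scaling gave 22, 1, 14, 1, 16 and 8 (5.81%, 3.49%, 3.92% and 2.49%), with medians of 0. Testing only probes above background on every array of the contrast gave 27, 0, 17, 0, 0 and 0 (26.5%, 7.15%, 19.5% and 5.82%), with medians of 1.56 and 0.84. With 1 probe per gene the counts were 28, 9, 16, 4, 2 and 1, and the medians 0.28 and -0.08, so that the XY median turned sign. With no filter on dim probes the sex difference had 0 and 0 calls and the other counts stayed within 1.5 times. The unmoderated test gave 22 and 16 sex differences without adjustment and 0 and 0 with it, the latter chosen after seeing the data. The deposited processed values gave the same counts.

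The replicate numbers were not shown to pair inputs with IPs, their deviations correlating at 0.03 (XX) and 0.14 (XY). With a replicate block the counts were 43, 11, 24 and 5, with 11 and 5 sex differences.

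Leaving out each array in turn gave 40 to 44 enriched and 10 to 18 depleted in XX, 23 to 29 enriched and 2 to 13 depleted in XY, 0 to 14 and 0 to 9 sex differences, and medians of 0.21 to 0.50 in XX and 0.05 to 0.14 in XY. In each sex the depleted count was lowest without the first IP array and highest without the second. The depleted share of all tested probes moved the same way, so the range is not particular to the Zfp probes. The 36 called differences of named genes kept their sign under every setting run. They were past their limits in 6 at the 50th percentile and 4 with either normexp. With the common floor 30 were, with scaling to detected probes 30 and with quantile normalization 35. Of 32 differences named without a call, 24 changed sign and 7 of the others passed the limits downward at the 50th percentile, and 18 changed sign with normexp. The cause was not tested. The IPs, with 6068 to 9468 probes above background, limit what can be measured.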
